A study of Mus musculus with 12 samples.

Results

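The 50 genes described here copy DNA or divide the cell: 30 act in DNA replication and 20 in mitosis. They were chosen by symbol, and a gene was measured if at least 1 of its probes had a detection p-value under 0.05 on 3 or more arrays. Of the 50, 48 had a named probe and 43 met that rule, 27 replication genes and 16 mitosis genes, among 10882 named genes tested in the series. Ccnb1 and Mki67 had no named probe here. Orc1, Ccne1, E2f8, Ccnb2 and Cenpe had named probes that stayed dim, with detection on at most 1 array. A gene detected in 1 group alone could enter only by being high there, so counts and medians over the 43 measured genes describe them and support no claim about the 50.

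Before a cell divides, the Mcm2 to Mcm7 ring is loaded on origins, joined by Cdc45 and the GINS proteins, and unwinds DNA in S phase. E2F transcription factors switch on many of these genes as a cell leaves the resting state, while the genes of mitosis are switched on later, in G2 phase. Regulatory T cells (Tregs) are T cells that restrain immune responses. In adipose tissue they build up as clonally expanded populations, and division is 1 of the ways in which a tissue keeps its Tregs.

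Each of 12 single-colour Illumina mouse arrays measured RNA of Tregs from perigonadal white adipose tissue (PGWAT) or spleen, and the 4 groups held 3 arrays each. All mice were of strain C57BL/6, ate a high fat diet and carried Foxp3Cre, a Cre recombinase driven by the promoter of Foxp3, the factor that defines Tregs. Control mice were Foxp3Cre, and Tbet flox mice carried Tbetflox with Foxp3Cre, so that T-bet, encoded by Tbx21, would be removed in cells that use the Foxp3 promoter. The labels used here give no age. They do not say whether the 3 samples of a group came from separate animals, so the p-values cover the spread among these samples alone, which may be technical. Nothing in the files placed the single Tbx21 probe within the floxed part, so its level did not check the deletion, and it ranged over 4.62 to 7.40 log2 on PGWAT control arrays, 4.54 to 8.45 on PGWAT Tbet flox arrays, 4.80 to 6.03 on spleen control arrays and 4.71 to 4.98 on spleen Tbet flox arrays.

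The spleen arrays were far more alike than the PGWAT arrays, which set what could be called. Arrays of 1 group correlated over all genes at 0.979 to 0.991 in spleen and at 0.774 to 0.872 in PGWAT. The median SD of a replication gene was 0.74 log2 for PGWAT control, 0.44 for PGWAT Tbet flox, 0.15 for spleen control and 0.14 for spleen Tbet flox. The share of all tested genes detected ran from 67.2% to 86.6%, and the number of arrays limited the precision. All PGWAT arrays lay on 1 chip and all spleen arrays on another, so tissue and chip cannot be told apart, and within a chip the genotypes held different positions, so genotype and position cannot be told apart either. Foxp3 had mean levels of 7.54, 8.36, 8.63 and 8.54 on the PGWAT control arrays, PGWAT Tbet flox, spleen control and spleen Tbet flox. The summed intensity of 6 measured Treg markers, of 8 listed and Foxp3 among them, was 1569 to 3282, 3788 to 5120, 2215 to 2585 and 2871 to 3715 in that order, higher in Tbet flox in both tissues with no overlap of the genotypes.

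Other cell types moved with the groups compared below. The summed intensity of 12 measured macrophage markers, of 16 listed, was 14380 to 16330 for PGWAT control, 2495 to 11070 for PGWAT Tbet flox, 2981 to 3896 for spleen control and 2633 to 3462 for spleen Tbet flox. That of 6 measured stroma and endothelium markers, of 11 listed, was 1908 to 9021, 1668 to 3696, 226 to 260.1 and 252.8 to 268.1 in the same order. The sum of 9 measured T cell markers, of 11 listed, ran the other way, with 4257 to 7766, 8651 to 9373, 9911 to 10470 and 9512 to 10260. The part of these markers in the results below was not tested, and in such bulk samples fewer cells of a type and less RNA per cell cannot be told apart.

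The promoters of both classes were searched for short motifs known from cell cycle genes. Sequences are shown for 4 replication genes and 2 mitosis genes. Each promoter shown holds an E2F word or a CHR word, explained below, so these sequences do not stand for their classes. Fen1 and E2f1, both called between the tissues, had 0 E2F words in their promoters and are not shown. RefSeq promoters, from 250 bases before to 50 bases after the start on GRCm38.p6, were found for 23 of the 27 measured replication genes (29 promoters) and 12 of the 16 measured mitosis genes (12 promoters). Tpx2, Gins2, Ccna2, Kif20a, Mcm4, Ccne2, Gins1 and Aurkb had no entry. The sequences are those of Mcm6 (chr1:128359656-128359955, minus strand), Mcm7 (chr5:138171834-138172133, minus strand), E2f2 (chr4:136172024-136172323, plus strand), Uhrf1 (chr17:56304063-56304362, plus strand), Top2a (chr11:99024140-99024439, minus strand) and Ube2c (chr2:164769679-164769978, plus strand). Each is written 5′ to 3′ on the strand of its gene, and capitals mark the E2F words TTTCCCGC, TTTGGCGC, TTTGCCGC and TTTCGCGC and the cell cycle homology region (CHR) word TTTGAA, read on both strands.
Mcm6: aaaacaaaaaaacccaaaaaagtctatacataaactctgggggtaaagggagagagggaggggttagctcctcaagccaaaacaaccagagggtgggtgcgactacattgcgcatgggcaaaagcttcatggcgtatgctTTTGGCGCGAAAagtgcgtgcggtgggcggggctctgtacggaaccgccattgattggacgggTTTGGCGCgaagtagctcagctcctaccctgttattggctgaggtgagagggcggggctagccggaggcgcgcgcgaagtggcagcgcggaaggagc
Mcm7: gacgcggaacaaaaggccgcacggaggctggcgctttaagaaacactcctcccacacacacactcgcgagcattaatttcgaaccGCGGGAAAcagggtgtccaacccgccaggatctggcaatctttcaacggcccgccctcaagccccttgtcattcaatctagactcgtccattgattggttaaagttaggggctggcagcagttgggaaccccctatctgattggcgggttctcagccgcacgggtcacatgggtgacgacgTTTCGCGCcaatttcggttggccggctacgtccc
E2f2: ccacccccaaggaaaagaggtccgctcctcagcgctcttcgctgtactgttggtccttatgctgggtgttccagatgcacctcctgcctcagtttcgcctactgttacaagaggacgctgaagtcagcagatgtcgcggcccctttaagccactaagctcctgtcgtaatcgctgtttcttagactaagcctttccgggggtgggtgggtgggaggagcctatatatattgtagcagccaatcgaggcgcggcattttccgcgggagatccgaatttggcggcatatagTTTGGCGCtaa
Uhrf1: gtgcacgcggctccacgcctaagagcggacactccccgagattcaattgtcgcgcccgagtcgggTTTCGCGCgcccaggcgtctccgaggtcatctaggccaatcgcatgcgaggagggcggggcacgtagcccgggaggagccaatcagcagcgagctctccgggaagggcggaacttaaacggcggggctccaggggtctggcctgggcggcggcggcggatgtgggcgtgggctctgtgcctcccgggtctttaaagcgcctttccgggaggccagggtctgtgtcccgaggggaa
Top2a: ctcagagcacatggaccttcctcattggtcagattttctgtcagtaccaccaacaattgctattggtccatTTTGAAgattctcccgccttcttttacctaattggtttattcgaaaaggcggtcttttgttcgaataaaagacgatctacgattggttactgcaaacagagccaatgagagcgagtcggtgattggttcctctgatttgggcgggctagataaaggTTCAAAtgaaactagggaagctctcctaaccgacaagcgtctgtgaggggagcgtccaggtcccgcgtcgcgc
Ube2c: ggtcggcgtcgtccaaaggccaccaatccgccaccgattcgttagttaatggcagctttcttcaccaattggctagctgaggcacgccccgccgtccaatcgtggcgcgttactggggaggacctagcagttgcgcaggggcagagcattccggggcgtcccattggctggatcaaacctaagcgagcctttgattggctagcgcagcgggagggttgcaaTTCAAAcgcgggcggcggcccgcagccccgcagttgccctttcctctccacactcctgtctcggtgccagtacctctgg

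An E2F word stood in 11 of 29 promoters of the replication genes (37.9%) and in 1 of 12 of the mitosis genes (8.33%), against 2.26% of all 32851 promoters of this length and 3.73% of those of the named genes tested. The CHR word stood in 9 of 12 promoters of the mitosis genes (75.0%) and in 4 of 29 of the replication genes (13.8%). It stood in 17.9% of all promoters and in 12.4% of those of the named genes tested. CCAAT, also read on both strands, was common in both classes, in 65.5% and 83.3% of the promoters against 37.4% of all. In the Mcm6 promoter 3 E2F words were found, 2 of which overlap each other, and the first bases of the 3 lay at -110, -106 and -47 from the start, counted as 0. The Top2a promoter held the CHR word at -179 and -23, and that of Ube2c at -29. Mcm7, E2f2 and Uhrf1 each have a second RefSeq promoter, not shown, in which 0 E2F words were found, and that of E2f2 held the CHR word. These matches describe letters, not binding sites.

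**Figure D1:**
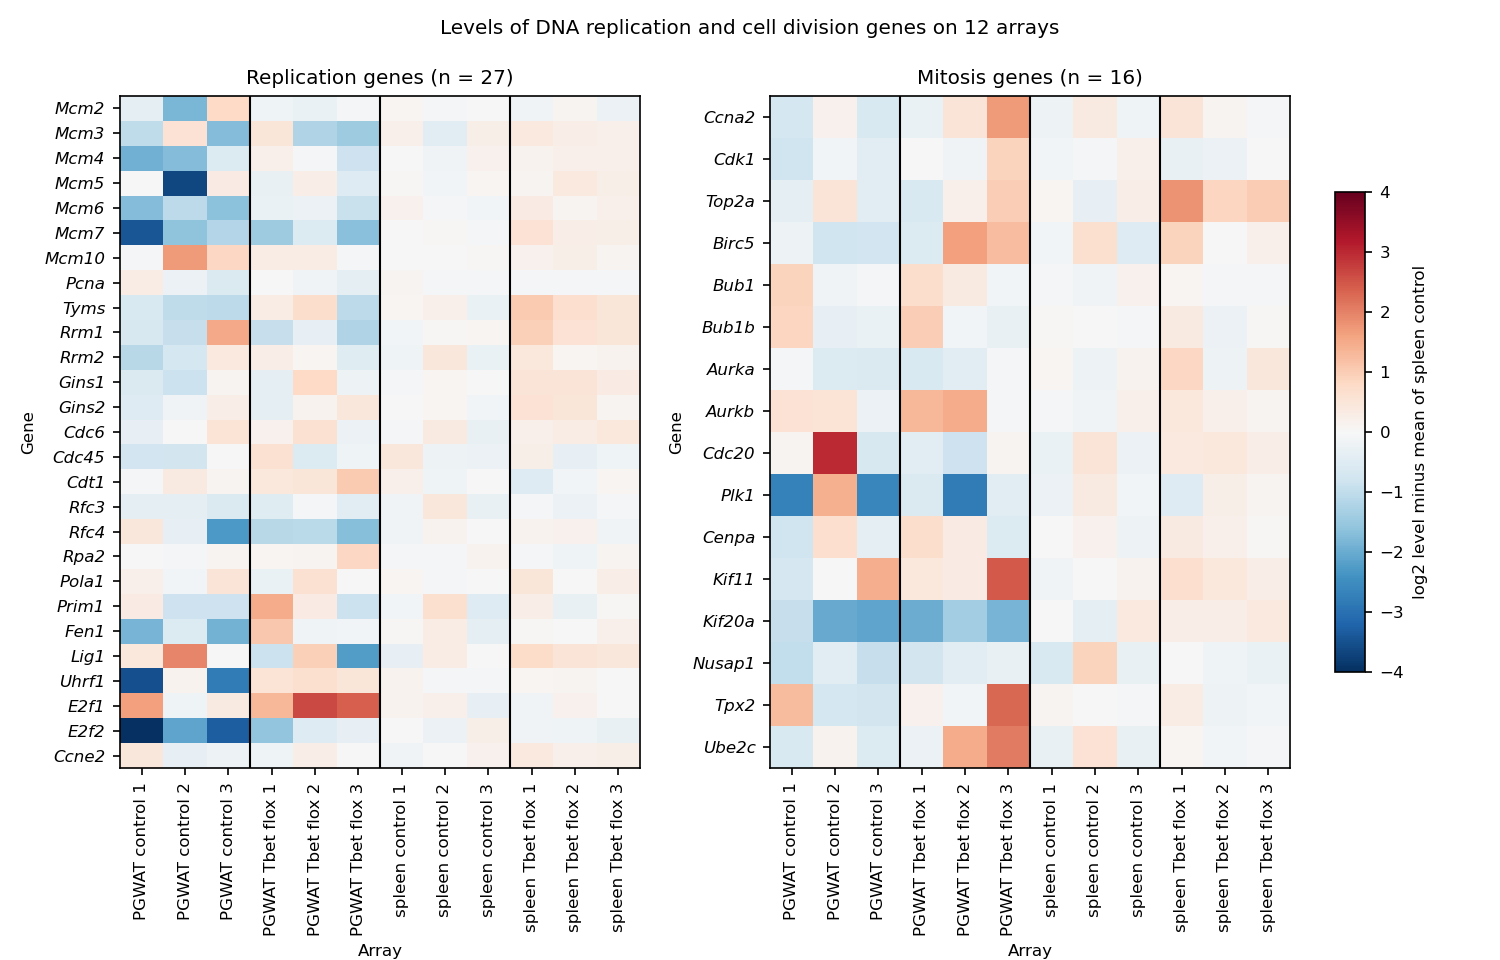
Levels of 27 replication genes (left) and 16 mitosis genes (right) on the 12 arrays; each cell is the normalized log2 intensity of the gene on 1 array minus its mean over the 3 spleen control arrays, on a colour scale from -4 to 4, and black lines part the groups. The spleen columns are pale and even, while E2f2, Uhrf1, Mcm6 and Mcm7 are blue, lower than in spleen control, on most of the PGWAT control arrays.

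In control mice, 6 of the 27 measured replication genes were lower in PGWAT Tregs than in spleen Tregs. E2f2, Mcm7, Uhrf1, Mcm6, Fen1 and Mcm4 fell, by 10.8-fold for E2f2 and by 2.66-fold to 4.18-fold for the others, and none of the other 21 was called. Of the mitosis genes, Kif20a alone fell. A gene counts as called, here and below, when its limma p-value adjusted over all 15308 genes and unnamed probes was under 0.05. The 6 replication genes and 1 mitosis gene called lower stand beside a background of 8.58% of all features called lower and 15.1% called in either direction.

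Of the replicative helicase, 3 of 9 measured subunits were called lower in PGWAT control: Mcm4, Mcm6 and Mcm7. The other 6 (Mcm2, Mcm3, Mcm5, Gins1, Gins2 and Cdc45) were not called, and over all 9 the differences from spleen control ran from -2.06 to -0.13 log2. The Mcm6 level was 8.63, 9.31 and 8.74 on the PGWAT control arrays, 10.11, 10.14 and 9.47 on those of PGWAT Tbet flox, 10.55, 10.31 and 10.27 on the spleen control arrays, and 10.69, 10.49 and 10.56 on those of spleen Tbet flox. Every PGWAT control array lay below every other array, the PGWAT Tbet flox arrays came next, and the spleen genotypes overlapped. Mcm6 fell by 1.48 ± 0.30 log2 (SE) in PGWAT control against spleen control (limma adjusted p = 0.00538).

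Mcm7, another ring subunit, read 4.79, 6.60 and 7.04 on the PGWAT control arrays, 6.79, 7.65 and 6.53 on those of PGWAT Tbet flox, 8.24, 8.24 and 8.14 on the spleen control arrays, and 8.77, 8.48 and 8.45 on those of spleen Tbet flox. All 6 PGWAT arrays lay below all 6 spleen arrays, and the PGWAT genotypes overlapped. The tissue difference was -2.06 ± 0.42 in control (limma adjusted p = 0.00532). A second, dimmer Mcm7 probe, detected on 8 arrays, gave 0.50, and with the mean of both probes the call was lost (-0.78, adjusted p = 0.378).

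Mcm4 read 7.90, 8.07 and 9.27 on the PGWAT control arrays, 10.03, 9.75 and 8.98 on those of PGWAT Tbet flox, 9.80, 9.68 and 9.99 on the spleen control arrays, and 9.96, 10.02 and 10.02 on those of spleen Tbet flox. PGWAT control lay below spleen control on every array, by 1.41 ± 0.34 in the mean (limma adjusted p = 0.0145), and overlapped PGWAT Tbet flox. Without PGWAT control 1 or 2 the adjusted p of Mcm4 was 0.0968 or 0.0777. Its other 2 probes read 0.20 and 0.08 for the same difference, and the mean of its probes -0.38 (adjusted p = 0.534).

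The other ring subunits were not called in any comparison. Mcm2 levels were 6.67, 5.19 and 7.82 on the PGWAT control arrays, 6.86, 6.77 and 6.99 on those of PGWAT Tbet flox, 7.10, 6.96 and 7.03 on the spleen control arrays, and 6.90, 7.14 and 6.80 on those of spleen Tbet flox. Mcm3 levels were 5.20, 6.79 and 4.45, then 6.70, 5.00 and 4.77, then 6.41, 5.75 and 6.43, and last 6.59, 6.46 and 6.41, in the same order of groups. Mcm5 levels were 9.17, 5.51 and 9.46, then 8.83, 9.41 and 8.63, then 9.19, 9.03 and 9.21, and last 9.25, 9.54 and 9.38. For Mcm2 and Mcm3 the PGWAT control arrays spread over the range of the others. The low Mcm5 mean of that group came from array 2, and its arrays 1 and 3 lay within the range of the other groups. Pcna, the sliding clamp that holds polymerases on DNA, read 9.56, 9.02 and 8.67, then 9.26, 9.11 and 8.89, then 9.38, 9.22 and 9.18, and last 9.20, 9.21 and 9.18. Its 4 groups overlapped, and the largest of its 4 pairwise differences was -0.17 log2, with an interval of -0.77 to 0.42 (95%).

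E2f2 showed the widest gap between the tissues. This E2F factor switches on S-phase genes and is also known in mouse T cells as a brake on their division. Its level was 4.34, 7.13 and 5.93 on the PGWAT control arrays, 7.64, 8.73 and 8.89 on those of PGWAT Tbet flox, 9.22, 8.99 and 9.47 on the spleen control arrays, and 9.10, 9.06 and 8.94 on those of spleen Tbet flox. PGWAT control stood below all other arrays and PGWAT Tbet flox below all spleen arrays, while the spleen genotypes overlapped. The difference was -3.43 ± 0.48 in control (limma adjusted p = 0.000441), and it stayed called under all 23 alternative settings, from -4.58 to -2.28. A second E2f2 probe gave -3.02 (limma adjusted p = 0.00018 over all kept probes), and the dimmest of its 3 probes, detected on 6 arrays, gave -0.62.

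Uhrf1, which brings the methyltransferase Dnmt1 to newly copied DNA, read 4.47, 8.15 and 5.20 on the PGWAT control arrays, 8.54, 8.62 and 8.48 on those of PGWAT Tbet flox, 8.14, 7.90 and 7.94 on the spleen control arrays, and 8.06, 8.10 and 7.97 on those of spleen Tbet flox. PGWAT control arrays 1 and 3 were low, and array 2 lay just above the highest spleen array, so these groups overlapped. Its difference of -2.06 ± 0.53 (limma adjusted p = 0.0193) rested on arrays 1 and 3, since without 1 of them it was -1.31 or -1.68 with adjusted p = 0.154 or 0.111. Its other probe, detected on 6 arrays, read 0.63. Fen1, the flap nuclease that trims lagging-strand fragments, fell by 1.43 ± 0.43 (limma adjusted p = 0.0404), a call lost under 14 of 23 settings. These included leaving out PGWAT control 1 or 3, PGWAT Tbet flox 2, spleen control 1 or 2, or spleen Tbet flox 1 or 2, with adjusted p of 0.0517 to 0.174.

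Among the mitosis genes, Kif20a was the only one called between the tissues. This kinesin acts in the last step of division, cytokinesis. Its level was 5.49, 4.39 and 4.30 on the PGWAT control arrays, 4.43, 5.00 and 4.53 on those of PGWAT Tbet flox, 6.39, 6.02 and 6.79 on the spleen control arrays, and 6.66, 6.66 and 6.80 on those of spleen Tbet flox. All 6 PGWAT arrays lay below all 6 spleen arrays, and the probe was detected on 1 array in each PGWAT group and on all spleen arrays. Kif20a fell by 1.67 ± 0.42 in control (limma adjusted p = 0.0164) and by 2.05 ± 0.42 in Tbet flox mice (limma adjusted p = 0.00874). The control call was lost without PGWAT control 2 or 3 (adjusted p = 0.0777 and 0.0825), and the Tbet flox call without PGWAT Tbet flox 1 or 3 (0.062 and 0.0523).

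Over the classes, most genes of this comparison were not called. Of the replication genes 20 measured lower and 7 higher, with a median of -0.46 log2, and 21 of the 27 were not called. Of the mitosis genes 11 measured lower and 5 higher, with a median of -0.25, and 15 of the 16 were not called. The median of all features was -0.12, and 44.1% of them measured higher. At an unadjusted p under 0.05, 7 replication genes, 1 of them higher, and 1 mitosis gene passed, beside 29.1% of all features. In 7 replication genes and 1 mitosis gene all PGWAT control arrays lay below all spleen control arrays, beside 23% of all features. Macrophage and stroma markers were higher and T cell markers lower in the same comparison: 9 of 12 and 5 of 6 were called higher, and 4 of 9 T cell markers were called lower.

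**Figure D2:**
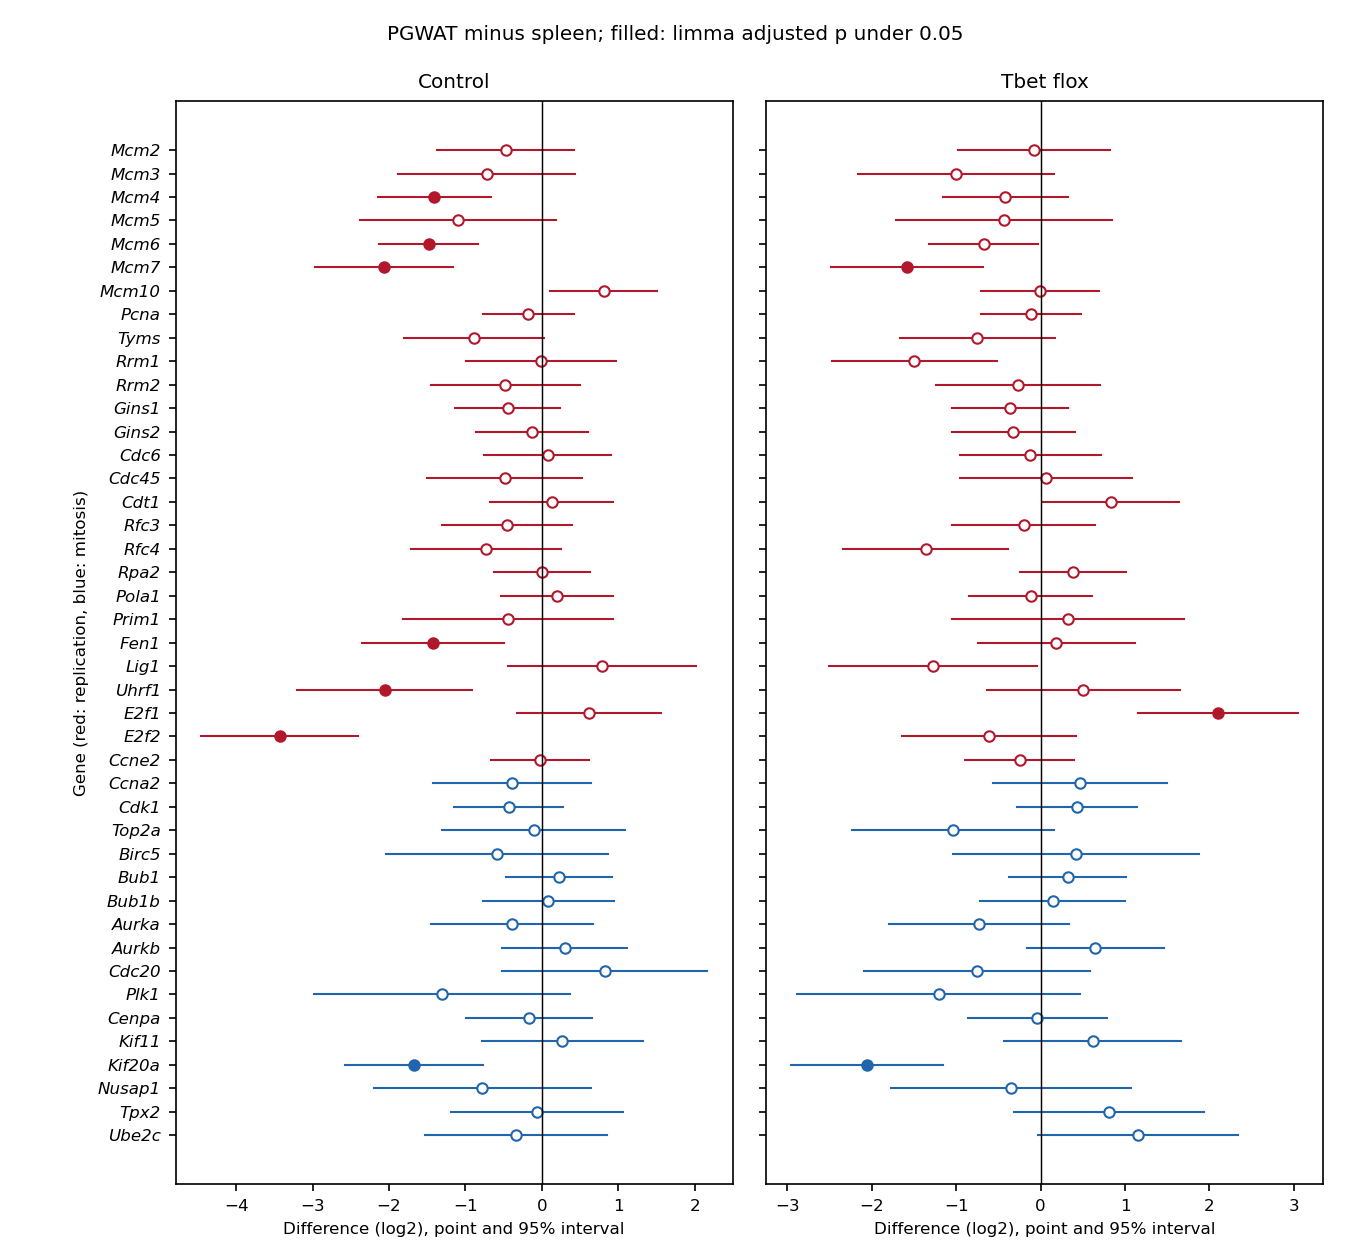
Difference between PGWAT and spleen (x axis, log2, PGWAT minus spleen) for each replication gene (red) and mitosis gene (blue), in control mice (left) and Tbet flox mice (right); points are estimates, lines 95% intervals, and filled points were called. In control mice 7 points are filled, all left of 0, with E2f2 farthest at -3.43; in Tbet flox mice Mcm7 and Kif20a are filled left of 0 and E2f1 right of it.

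In Tbet flox mice 2 of the 27 replication genes and 1 of the 16 mitosis genes were called between the tissues. E2f1 rose and Mcm7 fell in PGWAT among the replication genes, and Kif20a fell among the mitosis genes. Of all features 9.48% were called, 4.52% higher and 4.96% lower. Mcm7 fell by 1.58 ± 0.42 (limma adjusted p = 0.0312), a call lost without PGWAT Tbet flox 1 or 3 or spleen Tbet flox 1 (adjusted p = 0.148, 0.185 and 0.0522). E2f2, Uhrf1, Mcm6, Fen1 and Mcm4 were not called in these mice, with differences of -0.61, 0.51, -0.67, 0.18 and -0.42. Whether such a tissue difference changed with genotype is the comparison of genotype effects given further on, which called none of them.

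E2f1, an activating E2F factor, behaved apart from E2f2. It read 6.92, 5.10 and 5.62 on the PGWAT control arrays, 6.58, 7.90 and 7.67 on those of PGWAT Tbet flox, 5.39, 5.46 and 4.94 on the spleen control arrays, and 5.12, 5.44 and 5.28 on those of spleen Tbet flox. The PGWAT Tbet flox arrays lay above all spleen arrays and overlapped PGWAT control through its array 1. E2f1 rose by 2.10 ± 0.44 in PGWAT of Tbet flox mice (limma adjusted p = 0.00987), and the call was lost without PGWAT Tbet flox 2 or 3 (adjusted p = 0.0736 and 0.0693). In control mice its difference was 0.61.

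The medians in Tbet flox mice parted. It was -0.25 for the replication genes, of which 20 measured lower and 7 higher, and 0.23 for the mitosis genes, of which 7 measured lower and 9 higher, beside -0.04 for all features. The mitosis median changed sign under 7 of 23 alternative settings, and fell to -0.26 without PGWAT Tbet flox 1. In this comparison 4 of 12 macrophage markers and 4 of 6 stroma and endothelium markers were called higher.

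In PGWAT, replication genes measured higher in Tbet flox than in control Tregs, but limma called none of the 27, and none of the 16 mitosis genes. Of all features 0.209% (32) were called. That share rests on the weight given to each tissue's arrays: with no weights 580 features were called in PGWAT, 2 replication genes among them, and 0 in spleen, where 269 were called with weights. At an unadjusted p under 0.05, 6 replication genes, all of them higher, and 0 mitosis genes passed, beside 9.94% of all features. Of the replication genes 22 measured higher and 5 lower, with a median of 0.42 log2, and of the mitosis genes 14 higher and 2 lower, with a median of 0.31, beside 0.04 for all features. With arrays scaled to 1 median instead of quantile normalized, these medians were 0.17 and 0.10, and that of all features was -0.08.

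The largest differences were those of E2f2 and Uhrf1. The PGWAT values given above placed all 3 Tbet flox arrays above all 3 control arrays for both genes. E2f2 measured 8.42 ± 0.68 (SD, n = 3) in Tbet flox and 5.80 ± 1.40 in control, a difference of 2.62 ± 0.64 (SE). Its limma adjusted p was 0.182, and 0.0446 without PGWAT control 2, the control array with the highest level. The E2f2 difference was not called under 21 of 23 alternative settings, with limma adjusted p up to 0.5645. Uhrf1 measured 8.55 ± 0.07 (SD, n = 3) and 5.94 ± 1.95, a difference of 2.61 ± 0.71 (SE). Its limma adjusted p was 0.248, and 0.0082 without PGWAT control 2, where the Uhrf1 level was also the highest of the controls. The Uhrf1 difference was not called under 22 of 23 settings, with limma adjusted p up to 0.592. The second E2f2 probe gave 2.17 and the second Uhrf1 probe -0.41.

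Fen1 read 4.53, 5.84 and 4.51 on the PGWAT control arrays, 7.48, 6.25 and 6.26 on those of PGWAT Tbet flox, 6.45, 6.69 and 6.03 on the spleen control arrays, and 6.45, 6.38 and 6.61 on those of spleen Tbet flox. The PGWAT genotypes did not overlap, and the Tbet flox arrays stood near the spleen level. Its difference was 1.71 ± 0.58 (limma adjusted p = 0.325). The groups did not overlap in 5 replication genes (Mcm6, Cdt1, Fen1, Uhrf1 and E2f2), all higher in Tbet flox, and in 0 mitosis genes, beside 8.54% of all features that did not overlap and were higher. By their brightest probes all 9 helicase subunits measured higher, from 0.01 to 1.17. Mcm4 (1.17 ± 0.46) and Mcm6 (1.01 ± 0.40) stood at the top, with limma adjusted p of 0.409 and 0.421. Other kept probes did not share this direction throughout. Those of Mcm4 gave -0.15 and -0.01, those of Mcm6 0.96, -0.63 and -0.01, that of Mcm7 -0.72 and that of Gins2 0.68.

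Lig1, the ligase that joins lagging-strand fragments, was read in opposite directions by its probes. The brightest read 7.58, 9.12 and 7.13 on the PGWAT control arrays, 6.30, 8.12 and 4.93 on those of PGWAT Tbet flox, 6.85, 7.46 and 7.18 on the spleen control arrays, and 7.90, 7.66 and 7.60 on those of spleen Tbet flox. Its PGWAT groups overlapped, at -1.50 ± 0.77 (limma adjusted p = 0.560), and another bright probe gave -1.47. The probe ILMN_2595519 read 4.70, 4.50 and 4.33 on the PGWAT control arrays, where it was detected on 0 of 3 arrays, and 8.26, 7.64 and 6.78 on those of PGWAT Tbet flox. It was therefore at least 5.71-fold higher in Tbet flox, taking each control array at the higher of its own signal and the lowest signal detected there (limma adjusted p = 0.0358 over all kept probes). That was the single probe called among the 76 kept probes of the 43 genes, beside 0.166% of all 22833 probes. Of the 19 genes with several kept probes, 12 had probes of opposite sign in this comparison.

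For the 4 mitosis genes described next, high values stood on 1 or 2 arrays of a PGWAT group. Ube2c, the enzyme that loads ubiquitin for the anaphase-promoting complex, read 4.56, 5.33 and 4.62 on the PGWAT control arrays, 4.93, 6.67 and 7.27 on those of PGWAT Tbet flox, 4.88, 5.76 and 4.89 on the spleen control arrays, and 5.25, 5.07 and 5.09 on those of spleen Tbet flox. Tbet flox 2 and 3 stood above the other arrays and Tbet flox 1 among them, for a difference of 1.45 ± 0.74 (limma adjusted p = 0.554). Ccna2, the cyclin of S and G2 phase, read 4.35, 5.23 and 4.44 on the PGWAT control arrays, 4.81, 5.59 and 6.75 on those of PGWAT Tbet flox, 4.85, 5.44 and 4.90 on the spleen control arrays, and 5.57, 5.17 and 5.02 on those of spleen Tbet flox. Its highest array was Tbet flox 3, and the groups overlapped, at 1.04 ± 0.65 (limma adjusted p = 0.657). Plk1, a kinase that drives entry into mitosis, ranged from 4.73 to 8.85 among the PGWAT controls and from 4.65 to 7.01 within PGWAT Tbet flox. Cdc20, which directs the anaphase-promoting complex, was by its brightest probe at 8.39 on PGWAT control 2 and at 4.78 and 5.53 on the other controls. On PGWAT control 2 the other kept Cdc20 probes read 4.43 and 5.21.

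**Figure D3:**
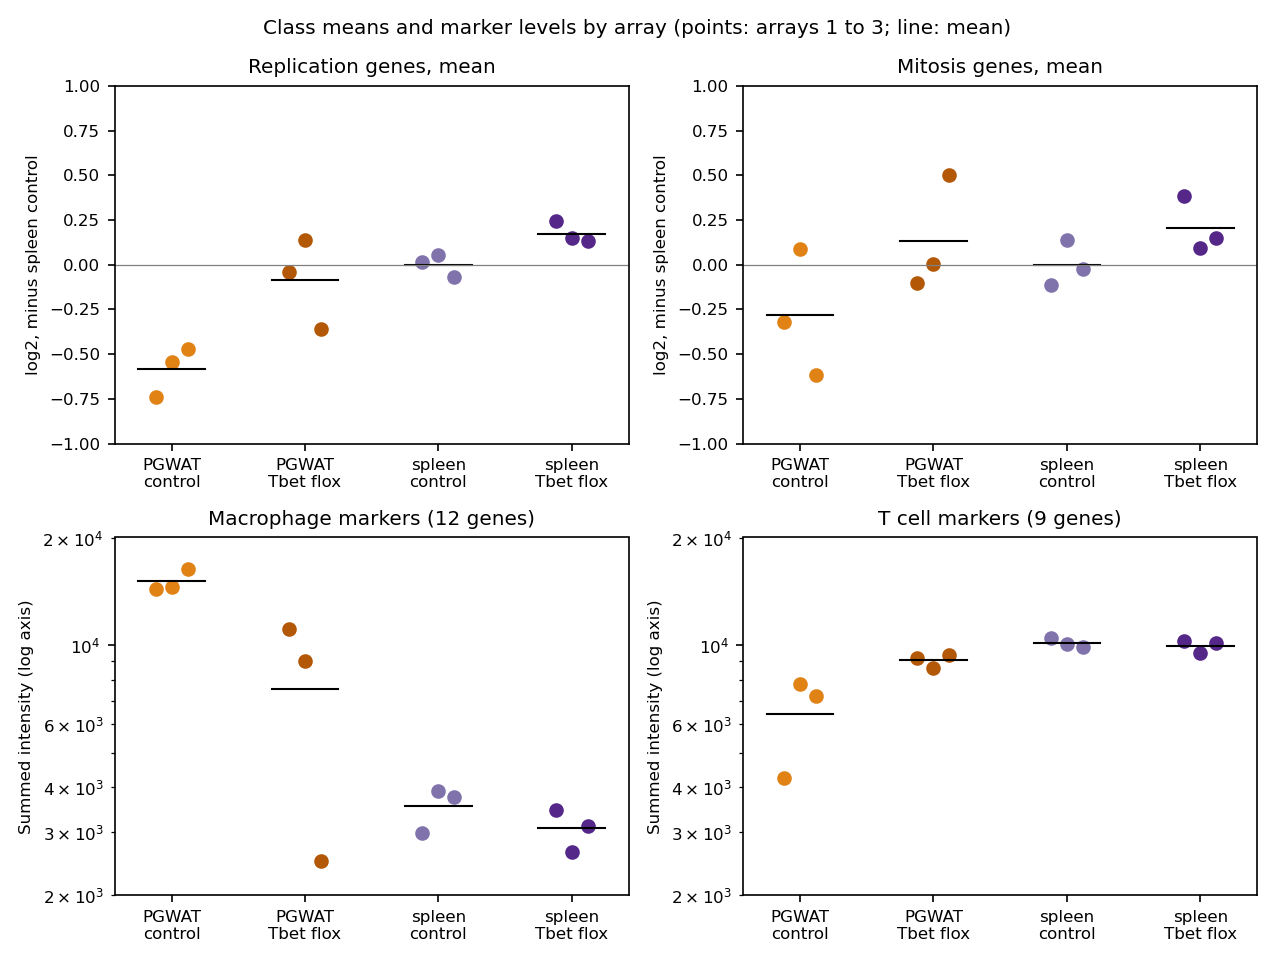
Upper panels: mean of the 27 replication genes and of the 16 mitosis genes on each array, as log2 level minus the spleen control mean; lower panels: summed intensity of 12 macrophage markers and 9 T cell markers on a log axis. Points are arrays 1 to 3 of a group and lines their means. The replication mean is lowest on the PGWAT control arrays, at -0.74 to -0.47, where the macrophage sum is highest, at 14380 to 16330.

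Taken array by array, the mean of the replication genes relative to spleen control was -0.74, -0.54 and -0.47 in PGWAT control and -0.04, 0.14 and -0.36 in PGWAT Tbet flox. The macrophage sum on these arrays was 14380, 14500 and 16330 and then 11070, 9029 and 2495. The genotypes overlapped in neither measure. Within Tbet flox the array with the lowest macrophage sum, array 3, also had the lowest replication mean. PGWAT control 1 had the lowest replication mean of the 12 arrays. It also had the highest stroma and endothelium sum (9021) and the lowest T cell (4257) and Treg marker (1569) sums. The mean of the mitosis genes was -0.32, 0.09 and -0.62 in PGWAT control and -0.10, 0.00 and 0.50 on those of PGWAT Tbet flox, which overlapped. All 12 macrophage markers measured lower in PGWAT Tbet flox, 0 of them called, and 8 of 9 T cell markers measured higher, 0 of them called. All 6 Treg markers measured higher too, with a median of 1.06 and 0 called. The part of these cells in the genotype differences was not tested.

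In spleen Tregs, Top2a rose in Tbet flox mice. Top2a untangles sister chromosomes and marks cells from S phase to mitosis. Its level was 4.96, 4.55 and 5.16 on the spleen control arrays, 6.69, 5.75 and 5.91 on those of spleen Tbet flox, 4.49, 5.40 and 4.45 on the PGWAT control arrays, and 4.29, 5.08 and 5.87 on those of PGWAT Tbet flox. The spleen genotypes did not overlap, and the PGWAT genotypes did. Of 3 named Top2a probes only this 1 was kept, detected on 2 of 3 spleen control arrays, and the others were each detected on 1 array. The spleen difference was 1.23 ± 0.23, or 2.34-fold (limma adjusted p = 0.0279), beside 0.673% of all features called higher and 1.76% in either direction. The call was lost without spleen control 1 or 2 or spleen Tbet flox 1 or 3 (adjusted p = 0.103, 0.0541, 0.136 and 0.0758), while the difference ranged from 0.94 to 1.40 over the arrays left out.

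No replication gene was called in spleen by limma, though 6 passed an unadjusted p under 0.05, all of them higher, beside 17.9% of all features. Tyms and Rrm1, which supply nucleotides, came nearest, while Rrm2, the small subunit that works with Rrm1, differed by 0.22 (limma adjusted p = 0.605). Tyms, which makes thymidylate for DNA, read 5.46, 5.59 and 5.14 on the spleen control arrays and 6.43, 6.07 and 5.89 on those of spleen Tbet flox, and in PGWAT 4.78, 4.39 and 4.34 in control and 5.69, 6.10 and 4.36 in Tbet flox. The spleen genotypes did not overlap, at 0.73 ± 0.18 (limma adjusted p = 0.0568), and the p was 0.047 without PGWAT Tbet flox 3. This Tyms difference was not called under 21 of 23 alternative settings. The other kept Tyms probes gave 0.31, 0.01 and 0.40 in spleen. No Tyms probe was detected on any PGWAT control array. Against spleen control the bound was at least 1.27-fold lower, a difference that limma did not call (adjusted p = 0.184).

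Rrm1, the large subunit of ribonucleotide reductase, read 7.53, 7.68 and 7.71 on the spleen control arrays and 8.59, 8.22 and 8.12 on those of spleen Tbet flox. In PGWAT it read 7.01, 6.71 and 9.17 in control and 6.72, 7.30 and 6.43 in Tbet flox. The spleen genotypes did not overlap, at 0.67 ± 0.19 (limma adjusted p = 0.0915), and the p was 0.0452 without PGWAT control 3, which held the highest Rrm1 level of all. This Rrm1 difference was not called under 22 of 23 alternative settings. The other kept Rrm1 probes gave -0.15 and 0.40 in spleen. Gins1 (0.45 ± 0.13, limma adjusted p = 0.1) and Gins2 (0.40 ± 0.14, limma adjusted p = 0.165), subunits of the helicase, followed.

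Groups did not overlap in 11 of the 43 measured genes in spleen, all higher in Tbet flox, beside 11.5% of all features that did not overlap and were higher. These were Mcm5, Mcm7, Mcm10, Tyms, Rrm1, Gins1, Gins2, Lig1 and Ccne2 among the replication genes and Top2a and Kif11, the motor that pushes spindle poles apart, among the mitosis genes. Of these, Mcm10 and Ccne2 lay near background in spleen. Mcm10 was detected on 0 of 3 control and 2 of 3 Tbet flox arrays there, and Ccne2 on 1 and 3. The class medians were small, at 0.18 log2 for replication genes (19 higher, 8 lower) and 0.20 for mitosis genes (11 higher, 5 lower), beside -0.01 for all features. Of the 76 kept probes 59 measured higher, and 3 were called, all higher, beside 1.47% of all probes. They were those of Top2a, a second Mcm6 probe (0.69, limma adjusted p = 0.0425) and the Lig1 probe ILMN_2595519 (0.72, limma adjusted p = 0.0401). Probes of opposite sign occurred in 5 of the 19 genes with several kept probes. By their brightest probes E2f2 and Uhrf1, so far apart in PGWAT, differed in spleen by -0.19 and 0.05, with 95% intervals of -0.63 to 0.24 and -0.43 to 0.53. The second Uhrf1 probe, detected on 6 arrays, read the reverse, 0.83 in spleen (limma adjusted p = 0.0757 over all kept probes) and -0.41 in PGWAT. Of the macrophage markers 11 of 12 measured lower in spleen Tbet flox and Csf1r and Mpeg1 were called lower. Of 6 Treg markers 5 measured higher there, with a median of 0.52, 4 at an unadjusted p under 0.05 and 0 called, while Foxp3 differed by -0.09. Their part in the spleen differences was not tested.

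**Figure D4:**
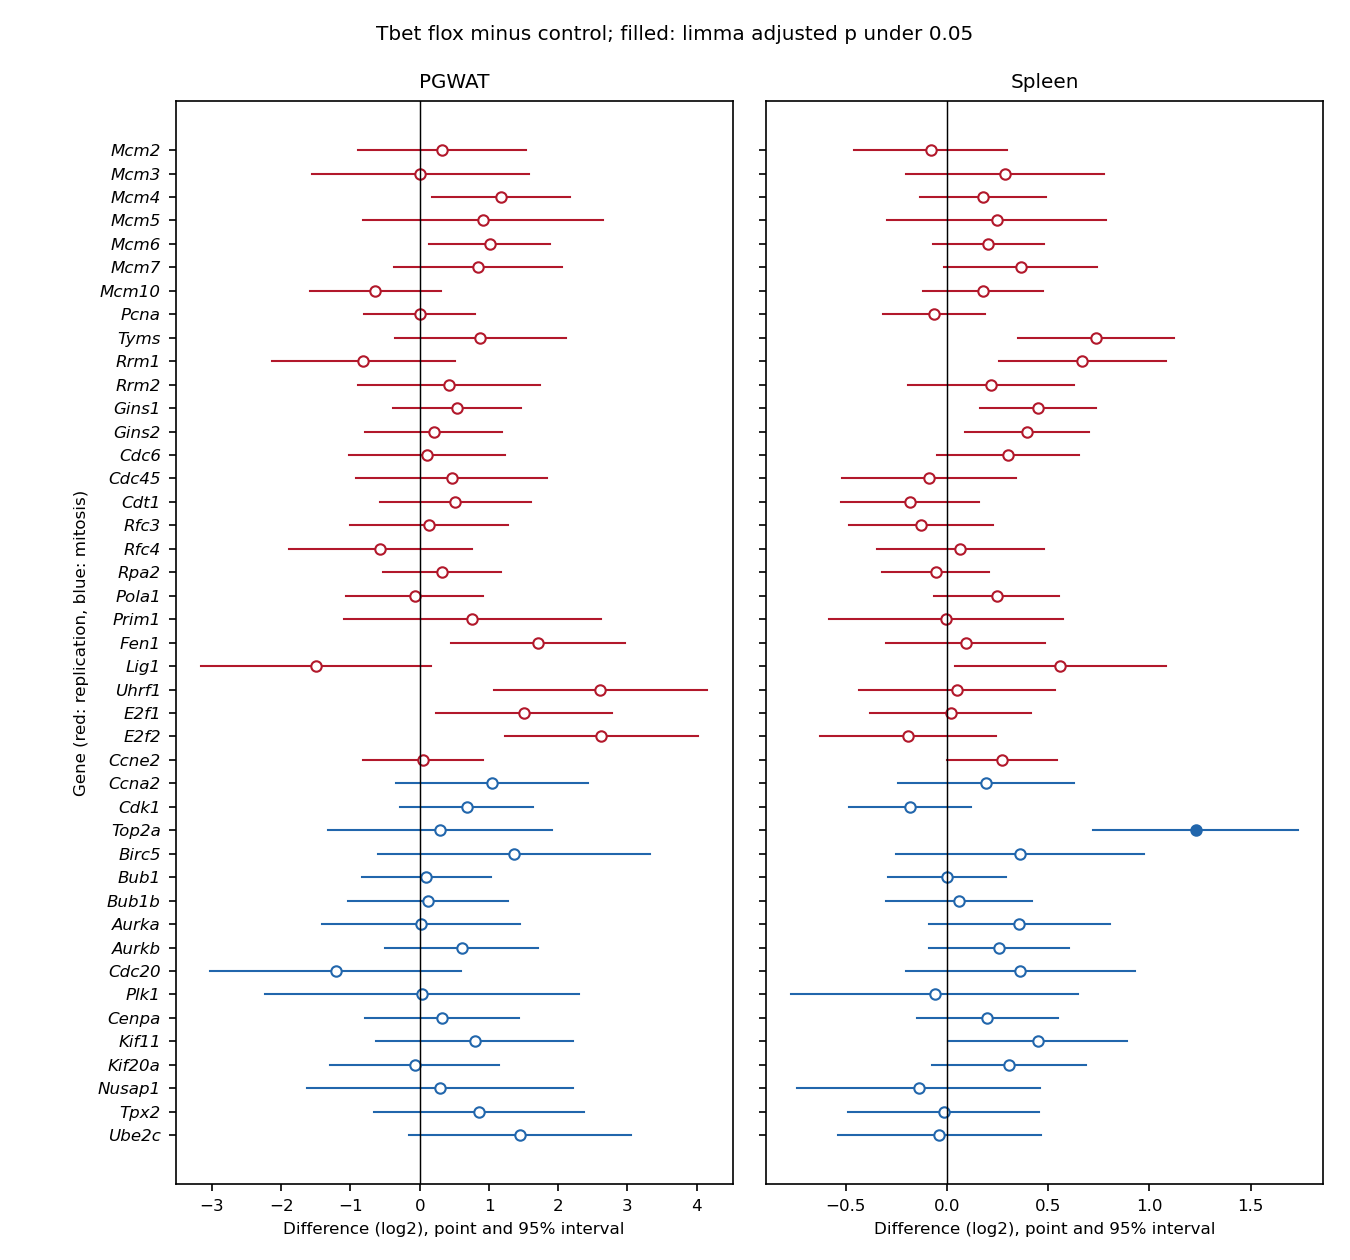
Difference between genotypes (x axis, log2, Tbet flox minus control) for each replication gene (red) and mitosis gene (blue), in PGWAT (left) and spleen (right, with a narrower scale); points are estimates, lines 95% intervals, and filled points were called. The single filled point is Top2a in spleen at 1.23, while in PGWAT E2f2 (2.62) and Uhrf1 (2.61) lie farthest right with wide intervals.

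Counting every kept probe rather than 1 per gene, 10 probes of these genes were called lower in PGWAT control than in spleen control, beside 13.8% of all probes called. They held both bright E2f2 probes, 2 of 4 Mcm6 probes and the Lig1 probe ILMN_2595519, which was at least 2.37-fold lower (limma adjusted p = 0.00578). In Tbet flox mice 1 probe was called higher and 4 lower, beside 8.54% of all probes. The brightest Mcm6 probe was not among these 4, but 2 of its dimmer probes were, at -1.61 and -1.79 (limma adjusted p = 0.0142 and 0.0262). Probes of opposite sign occurred in 11 and 9 of the 19 genes with several probes.

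The genotype difference was not shown to differ between the tissues for any of these genes. Limma called 0 of the 27 replication and 0 of the 16 mitosis genes for the difference between the genotype effects, beside 0.0719% of all features, and 6 replication genes and 0 mitosis genes passed an unadjusted p under 0.05. E2f2 had the highest estimate, 2.82 ± 0.68 more in PGWAT than in spleen (limma adjusted p = 0.174), and Uhrf1 the next, 2.56 ± 0.75 (0.239). Without PGWAT control 2 both were called, with adjusted p of 0.0436 and 0.0113. Each was uncalled under 21 of 22 settings, with limma adjusted p up to 0.478 for E2f2 and 0.684 for Uhrf1. Lig1 had the lowest, -2.06 ± 0.81 (limma adjusted p = 0.382), by the brightest probe whose direction another probe opposed. The second Uhrf1 probe gave -1.24, opposite to the brightest, and the other E2f2 probes gave 2.35 and -0.04. Of the 19 genes with several kept probes, 16 had probes of opposite sign in this comparison.

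Among the mitosis genes Ube2c (1.49 ± 0.78) and Cdk1 (0.86 ± 0.47) had the smallest p, with limma adjusted p of 0.529 and 0.552. Cdk1, the kinase that drives mitosis, read 7.28, 7.98 and 7.66 on the PGWAT control arrays, 8.06, 7.94 and 8.95 on those of PGWAT Tbet flox, 7.96, 7.99 and 8.27 on the spleen control arrays, and 7.77, 7.84 and 8.06 on those of spleen Tbet flox. Its groups overlapped in both tissues, with the highest array in PGWAT Tbet flox 3.

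**Figure D5:**
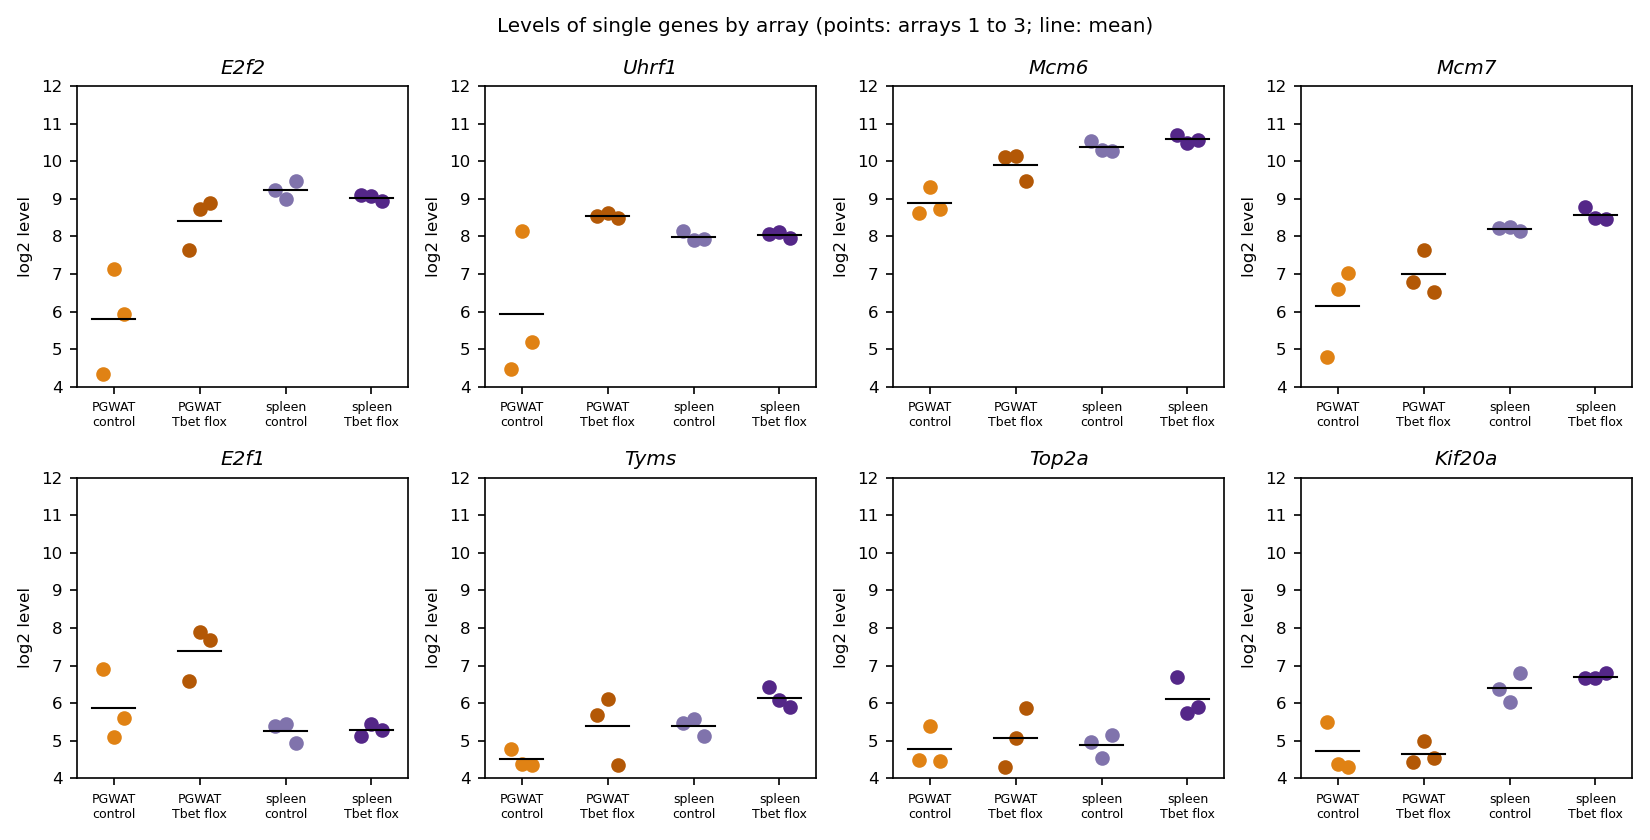
Normalized log2 level (y axis) of 8 genes on each array (points, arrays 1 to 3) with the group mean (line) in the 4 groups. E2f2 and Mcm6 are lowest in PGWAT control and higher in PGWAT Tbet flox, Kif20a and Mcm7 are lower in both PGWAT groups than in spleen, E2f1 is highest in PGWAT Tbet flox, and Tyms and Top2a are higher in spleen Tbet flox than in spleen control.

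Genes around these 43 in the same pathways were counted from 4 further lists. Of 40 other replication genes 35 were measured. In control mice 5 of them fell in PGWAT and 0 rose, beside 8.58% of all features called lower, with Pold3, a subunit of polymerase delta (-1.69), and Rpa3 and Rpa1, which coat single-stranded DNA (-1.29 and -1.22), showing the largest changes. In Tbet flox mice 4 fell and 0 rose, beside 4.96% of all features called lower, led by the origin-firing kinase Cdc7 (-1.75), Rpa3 (-1.57) and Usp1, which removes ubiquitin from Pcna (-1.28). None was called for genotype by limma, with 2 in PGWAT and 8 in spleen at an unadjusted p under 0.05, beside 9.94% and 17.9% of all features. Of these tissue calls, those of Pold3, Rpa1, Cdc7 and Usp1 were each lost without either of 2 PGWAT arrays, and those of Rpa3 without 1.

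Of 53 other mitosis genes 40 were measured. In control mice 4 fell in PGWAT and 0 rose, a share near the 8.58% of all features called lower, led by the condensin subunits Smc4 (-1.80) and Ncapd2 (-1.48) and by Hjurp, which places Cenpa at centromeres (-1.31). The refitted Ncapd2 value was 0.07 without spleen control 2 and lay between -0.15 and -0.08 without any of 6 other arrays. With all arrays its SD was 0.18 in PGWAT control and 0.28 in spleen control. Each of these refits chose the brightest kept probe anew, so another Ncapd2 probe may have been read, which was not checked. The Hjurp call was lost under 6 of 23 settings, 3 of them the removal of 1 array. In Tbet flox mice Smc4 alone of the 40 fell, by 3.36 ± 0.37 log2 (limma adjusted p = 0.000125), beside 4.96% of all features called lower. In spleen Cdca5, which protects sister chromatid cohesion, rose by 0.47 ± 0.11 in Tbet flox mice (limma adjusted p = 0.0492), a call lost under 19 of 23 settings, 12 of them the removal of 1 array. It was the single call among the 40 there, beside 0.673% of all features called higher.

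Among the G1 regulators and the brakes of the cycle, calls between the tissues went both ways. Of 9 measured G1 cyclins and kinases, of 10 listed, Ccnd1 (cyclin D1) rose by 3.24 ± 0.39 in PGWAT control against spleen control (limma adjusted p = 0.000135), while its partner kinase Cdk4 fell by 1.67 ± 0.41 (0.0158) and Cdk2 by 1.03 ± 0.30 (0.0337), beside 15.1% of all features called. The Cdk2 call was lost under 11 of 23 settings, 5 of them the removal of 1 array, with values up to -0.03 and adjusted p up to 0.949, and the Cdk4 call under 5, 2 of them the removal of 1 array. Cdk4 rose by 0.77 ± 0.17 in spleen Tbet flox against spleen control (limma adjusted p = 0.0447), a call lost under 15 of 23 settings, 9 of them the removal of 1 array.

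Of 17 measured brakes, of 19 listed, 3 rose and 2 fell in PGWAT of control mice, beside 15.1% of all features called, and 2 rose and 1 fell in Tbet flox mice, beside 9.48%. Cdkn1a, the p53 target and inhibitor of cyclin-dependent kinases known as p21, rose by 4.89 ± 0.30 (limma adjusted p = 5.94e-07) and its relative Cdkn1c by 2.61 ± 0.48 (limma adjusted p = 0.00312). Foxo1, a factor of resting T cells, fell by 1.63 ± 0.51 (limma adjusted p = 0.0465), a call lost under 14 of 23 settings, 8 of them the removal of 1 array. In Tbet flox mice Cdkn1a was at least 23.8-fold higher in PGWAT, Btg2, which slows G1 progression, rose by 1.43 ± 0.26 (limma adjusted p = 0.00422), and Cdkn1b fell by 1.28 ± 0.32 (limma adjusted p = 0.0249), a call lost under 4 of 23 settings, 2 of them the removal of 1 array. Cdkn1a is known from macrophages and stroma as well as T cells, and Ccnd1 from macrophages and stroma. The sums of the marker lists of macrophages and of stroma and endothelium, given above, were higher on the PGWAT arrays than in spleen. The exception was the macrophage sum of PGWAT Tbet flox 3, 2495. The part of these cells in these differences was not tested. No brake was called for genotype by limma in either tissue, with 2 in PGWAT, 0 of them higher, and 7 in spleen, 2 of them higher, at an unadjusted p under 0.05, beside 9.94% and 17.9% of all features.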

How the data were processed

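Per the file headers, the authors deposited for each array the average intensity of a probe's beads, neither normalized nor background subtracted. Beside it stands, per the file headers, a detection p-value, the probe's rank against negative control probes of that array. A second deposited table of processed intensity values, whose 12 columns share almost 1 distribution and were read as quantile normalized, served as an alternative. Per the submitters' processing notes, GenomeStudio was used, and its version and settings were not given in the sources used here. Per the labels' protocols, RNA came from Qiagen Allprep, NuGen Ovation Pico amplified it and NuGen Encore Biotin IL kits labelled the cDNA.

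Signals were background corrected and quantile normalized by the neqc method (limma 3.58.1, R 4.3.3, offset 16, log2 scale). Of 45281 probes, the filter kept 22833 whose detection p-value was under 0.05 on 3 or more arrays, and a gene was read by its brightest kept probe, leaving 10882 named genes and 4426 unnamed probes. Gene symbols came from the platform annotation: 34885 probes had 1 symbol, 18 several and 10378 none, and a match by Entrez ID to current symbols, found for 34807, changed 0. With limma, a model of group means took all 12 arrays, with 1 weight per tissue (0.313 for PGWAT and 3.20 for spleen), 8 residual and 5.11 prior degrees of freedom and two-sided tests, and p-values were adjusted over all 15308 features by the method of Benjamini and Hochberg. The fit was also run on simulated data with independent normal noise at each tissue's own spread. Those data held no outlying arrays and no admixed cells, so the run is no support for the results here. For a gene below background on all arrays of a group, fold changes are lower bounds, with the lowest detected signal of an array as its floor.

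Replicate numbers of the titles did not pair the samples: same-numbered arrays of the genotypes deviated together with correlations of 0.0757, 0.00707 and 0.0071 in PGWAT and -0.197, -0.199 and 0.0269 in spleen. The 50 genes, the further gene lists and the choice of weights were made with earlier results of these data known. Values on every array are given for up to 4 called genes with the largest change per comparison and class, otherwise the 2 with the smallest p, for Mki67, Top2a, Pcna and Mcm2 to Mcm7, and for the lowest and highest difference of genotype effects. Of the further lists, up to 3 called genes with the largest change per comparison are named. Others (Fen1, Gins1, Gins2, Plk1 and Cdc20, second probes, and members named in counts) were chosen after their values were seen.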

Additional observations from a re-analysis of the deposited data

How the results depend on the processing

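Results were refitted with no background correction, with the authors' processed table, with arrays scaled to 1 median, with other filters on dim probes, with the mean of a gene's probes, with other weights, with the groups compared alone, with the replicate number as a block, and with arrays left out. Of the 27 replication genes, 2 were called between tissues in Tbet flox mice, and this count was 4 with arrays scaled to 1 median, 1 with no filter on dim probes, 1 with no tissue weights, 4 with 1 weight per array, 4 with the groups compared alone, 1 with the replicate block, 1 without PGWAT control 1 and PGWAT Tbet flox 3 together, and 0 to 4 with 1 array left out. Of these genes 6 were called between tissues in control mice, 3 with the mean of a gene's probes or the groups compared alone, and 4 to 6 with 1 array left out; without PGWAT control 1, Mcm4, Uhrf1 and Fen1 lost their calls and 1 other gene was called higher. For genotype, 0 were called in either tissue, but 2 were in PGWAT with no tissue weights, 1 in spleen with a detection p under 0.01, 0 to 2 in PGWAT and 0 to 1 in spleen with 1 array left out, and 0 to 2 for the genotype effect between tissues. Of the mitosis genes, the 1 call between tissues in control mice became 0 with the groups compared alone or the replicate block, the 1 in Tbet flox mice 0 with the replicate block, and the 1 for genotype in spleen 0 with no filter on dim probes, no tissue weights, the groups compared alone or the replicate block; each was 0 to 1 with 1 array left out. The cause of these changes was not tested. The Ncapd2 difference between tissues in control mice turned from -1.48 to 0.0709 without spleen control 2, with -1.58 as the lowest with 1 array left out. Refits with arrays left out normalized the arrays, filtered the probes and chose a gene's brightest probe anew. A changed value may thus come from another probe of the gene, which was not checked. Of 984 refits of 43 gene differences, 805 kept direction and call, 170 lost and 8 gained the call, and 1 reversed; of 32 called differences 6 were never lost, those of E2f2, Mcm6, Ccnd1 and Cdkn1a between tissues in control mice and of Smc4 and Cdkn1a in Tbet flox mice. Of 228 refits of class medians 8 changed sign, 7 of them the mitosis median between tissues in Tbet flox mice. Scaling to 1 median moved the median of all features from -0.04 to -0.28 between tissues in Tbet flox mice and from -0.12 to -0.22 in control mice, and the share of calls that were higher from 56.3% to 41.7% for genotype in PGWAT, from 38.3% to 49.1% in spleen, and from 47.7% to 26.0% and 72.7% to 57.1% for tissue in Tbet flox mice and the genotype effect between tissues. Dim genes limit the precision: a probe near background, such as that of Tyms in PGWAT control, bounds a difference from 1 side.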
